A study of Mus musculus with 6 samples.

Results

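Levels of 9 enzymes of alcohol and aldehyde metabolism were compared in the hippocampus of 2 inbred mouse strains, C57BL/6 and DBA/2. The enzymes were taken by gene symbol from the authors' count table, Aldh2, Adh1, Adh5, Cat, Aldh1a1, Aldh1a7, Aldh1b1, Cyp2e1 and Akr1a1, and all 9 were found among its 51912 genes. Each strain had 3 libraries, made by RNA sequencing of frozen hippocampal tissue, with 13839366 to 20185683 counts per library. The labels name no treatment, sex, age or substrain, and it is unclear from them if 1 animal gave 1 library. The p-values below therefore speak of the spread among these libraries, part of which may be technical. C57BL/6 mice are widely known to drink alcohol readily and DBA/2 mice to avoid it; alcohol intake was not measured here.

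Ethanol is oxidized to acetaldehyde by cytosolic alcohol dehydrogenases in the liver, by catalase in peroxisomes with hydrogen peroxide, and by the microsomal cytochrome P450 encoded by Cyp2e1. Acetaldehyde is then oxidized to acetate, chiefly by the mitochondrial aldehyde dehydrogenase encoded by Aldh2. In brain, catalase is regarded as a main route of local ethanol oxidation, and the same families of enzymes also clear formaldehyde, lipid aldehydes and the aldehydes made from monoamines, and make retinoic acid.

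Sequence is shown first for a pair of neighbouring paralogs that had very different levels, Aldh1a1 (chromosome 19, 20492715 to 20643465, plus strand, GRCm38) and Aldh1a7 (chromosome 19, 20692953 to 20727562, minus strand). Their coding sequences in GENCODE M21, an annotation of GRCm38, were 1506 bases long each and 91.63% identical, with 126 mismatches. The first 90 coding bases of each are given below, 5′ to 3′, with the 5 positions at which they differ in capitals.
Aldh1a1: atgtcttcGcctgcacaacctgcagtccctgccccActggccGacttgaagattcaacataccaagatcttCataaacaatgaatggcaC
Aldh1a7: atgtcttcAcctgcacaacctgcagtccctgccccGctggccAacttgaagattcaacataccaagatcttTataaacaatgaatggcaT
The longest run without a mismatch was 100 bases. Of all stretches of 50 coding bases in Aldh1a7, 10.4% also occurred in Aldh1a1, and of stretches of 100 bases 0.1% did.

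The similarity extended upstream of a start of each gene. The 250 bases before the RefSeq start of each (GRCm38.p6) are shown because the levels of the genes they precede differed widely; capitals mark CCAAT (the CCAAT box) or else TATAAA (the TATA box) on the gene's strand, found by a search for the letters on both strands. The Aldh1a1 window is chr19:20601718-20601967 (plus strand), which lies inside the annotated span given above, before the start of a shorter coding transcript, and the Aldh1a7 window is chr19:20727557-20727806 (minus strand).
Aldh1a1: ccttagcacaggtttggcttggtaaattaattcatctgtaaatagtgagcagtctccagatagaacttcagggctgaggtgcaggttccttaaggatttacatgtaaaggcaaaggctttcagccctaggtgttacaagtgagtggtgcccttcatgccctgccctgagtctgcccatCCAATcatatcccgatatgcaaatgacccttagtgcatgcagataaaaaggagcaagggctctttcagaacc
Aldh1a7: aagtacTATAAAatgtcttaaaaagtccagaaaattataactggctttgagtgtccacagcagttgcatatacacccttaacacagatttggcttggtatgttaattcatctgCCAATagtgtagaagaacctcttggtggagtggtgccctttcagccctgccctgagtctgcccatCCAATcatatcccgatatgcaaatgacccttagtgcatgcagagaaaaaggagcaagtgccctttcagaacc
Of the 90 bases nearest the start, 87 were the same in both, and CCAAT stood at the same place in this stretch. Across the 175 bases that could be aligned the windows were 88.6% identical. CCAAT occurred in 33.8% of the 32851 RefSeq windows of this length and TATAAA in 12.4%, so their presence here is a description of the sequence only.

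The upstream window of Cat, chr2:103485154-103485403 (minus strand), is shown because Cat was among the genes whose level differed between strains. Capitals mark CCAAT on either strand (ATTGG where it lies on the opposite one) and the GC box GGGCGG.
Cat: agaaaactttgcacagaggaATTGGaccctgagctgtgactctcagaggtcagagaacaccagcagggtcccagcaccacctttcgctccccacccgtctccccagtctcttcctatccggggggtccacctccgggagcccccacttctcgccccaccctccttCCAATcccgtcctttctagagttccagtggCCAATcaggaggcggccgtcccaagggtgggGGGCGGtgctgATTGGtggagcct
It held 4 matches to CCAAT on either strand and 1 to GGGCGG, which occurred in 32.7% of windows. The window of Akr1a1 (chr4:116651675-116651924, minus strand) held no match to any of these motifs, nor to the antioxidant response motif TGACNNNGC (present in 10.2% of windows), on either strand. All of these sequences are from the C57BL/6J reference; the DBA/2 sequence was not examined.

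Genes with an adjusted p under 0.05 by the quasi-likelihood test of edgeR were called, using Benjamini-Hochberg adjustment over the 17517 genes that passed a filter on low counts. Log2 fold changes are DBA/2 over C57BL/6, and levels are in CPM, which scales each library's counts to one total after TMM normalization, given as mean ± SD over 3 libraries. Of the 9 enzymes, 6 passed the filter and 3 of these were called, Aldh1a1, Cat and Akr1a1, each lower in DBA/2. Among all tested genes 22.8% were called, 9.09% higher and 13.7% lower in DBA/2. The submitters' processing notes name build GRCm38, the C57BL/6J reference. Whether DBA/2 reads were lost against that reference was not tested. The median log2 fold change of the 6 tested enzymes was -0.13, against 0.003 for all tested genes. For 3 of the 6, all libraries of one strain lay below all of the other, as was so for 36.8% of all tested genes.

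**Figure D1:**
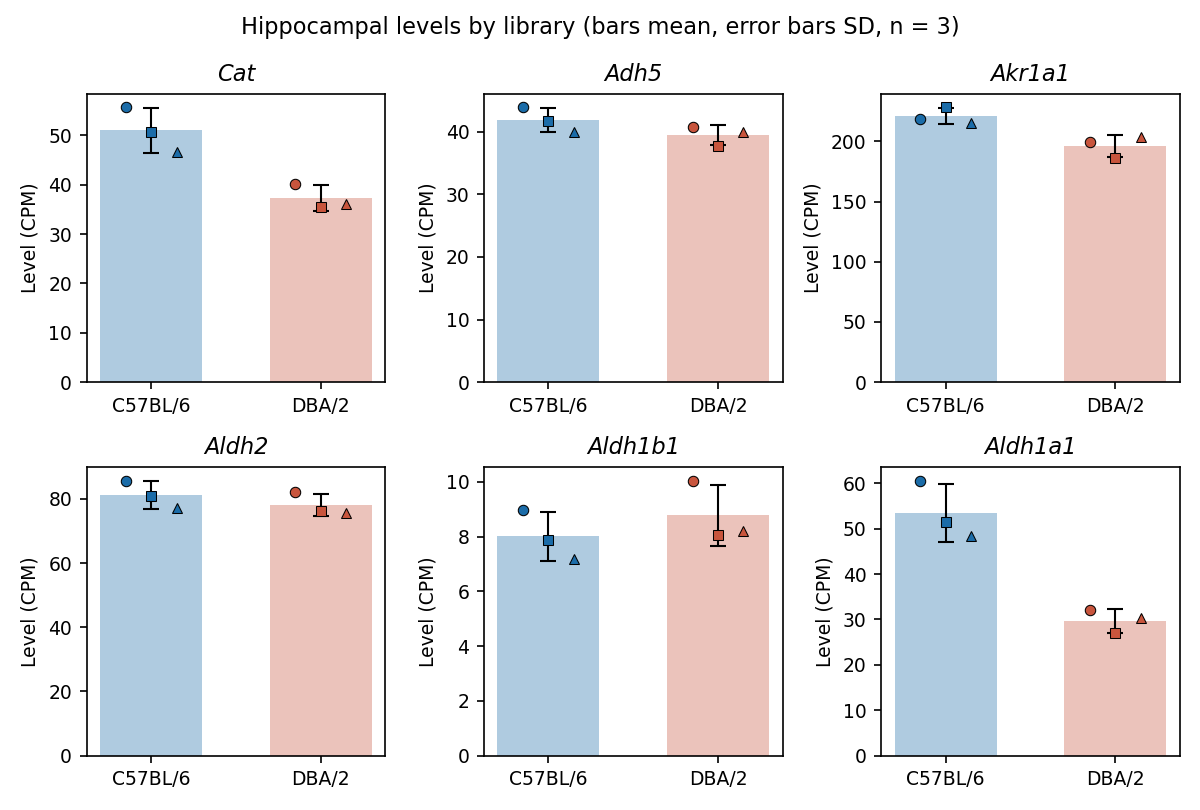
Level of each tested enzyme in every library (y axis, CPM, from 0), with bars for the mean and error bars for the SD of 3 libraries; circles, squares and triangles are the libraries numbered 1, 2 and 3. The C57BL/6 and DBA/2 points are apart for Cat, Akr1a1 and Aldh1a1, and overlap for Adh5, Aldh2 and Aldh1b1.

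Catalase (Cat, chromosome 2, 103453849 to 103485160, minus strand), which breaks down hydrogen peroxide and can oxidize ethanol with it, fell in DBA/2. Cat was at 55.7, 50.7 and 46.5 CPM in the C57BL/6 libraries and at 40.2, 35.5 and 36.0 CPM in the DBA/2 libraries. Every DBA/2 library lay below every C57BL/6 library. The means were 51.0 ± 4.57 and 37.2 ± 2.58 CPM, a log2 fold change of -0.45 (SE 0.073, 95% interval -0.60 to -0.30, edgeR adjusted p = 5.8e-05), so that the level fell by 26.8%. The change was smaller than the 0.471 that was the median size among all called genes. It was called in each fit that left out 1 library, with log2 fold changes from -0.51 to -0.38.

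The liver-type alcohol dehydrogenase and the ethanol-inducible P450 were close to the limit of detection. Taking 3 counts as the most that a count of 0 allows, the floor per library was 0.150 to 0.219 CPM. Adh1 (chromosome 3, 138260991 to 138290698, plus strand), the class I dehydrogenase, gave 8, 4 and 11 counts in the C57BL/6 libraries and 3, 9 and 2 in those of DBA/2. The strains overlapped, and the ratio of summed counts, 14 over 23 scaled by library size, was 0.64 with an exact 95% counting interval of 0.305 to 1.3. Cyp2e1 (chromosome 7, 140763739 to 140774987, plus strand) gave 3, 0 and 4 counts in the C57BL/6 libraries and 6, 3 and 2 in those of DBA/2, for a ratio of 1.65 (interval 0.585 to 5.03). These intervals cover counting error only. Neither gene passed the filter, and a fit without the filter called neither, with edgeR adjusted p of 0.607 for Adh1 and 0.642 for Cyp2e1. A strain difference was not detectable at this depth. Alb, the albumin gene of hepatocytes, had no count in any library, and the 5 hepatocyte markers together summed to at most 0.656 CPM in a library.

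Adh5 (chromosome 3, 138443093 to 138455499, plus strand) is the class III alcohol dehydrogenase, which acts on formaldehyde bound to glutathione and is made in most tissues. It was the alcohol dehydrogenase of the set with the higher level, at 43.9, 41.6 and 39.96 CPM in C57BL/6 and 40.8, 37.7 and 39.98 CPM in DBA/2. The strains overlapped and the gene was not called. Its log2 fold change was -0.08 with a 95% interval of -0.22 to 0.06 (edgeR adjusted p = 0.4345). An interval of this width does not show that the levels were equal.

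Akr1a1 (chromosome 4, 116636510 to 116651680, minus strand), an aldo-keto reductase that reduces many aldehydes to alcohols and makes precursors of ascorbate in mice, was the highest of the set and fell slightly. It was at 218.9, 228.4 and 215.6 CPM in C57BL/6 and at 199.6, 185.9 and 203.5 CPM in DBA/2. The lowest C57BL/6 library was above the highest DBA/2 library. The log2 fold change was -0.17 (SE 0.048, 95% interval -0.27 to -0.07, edgeR adjusted p = 0.0114), so that the level fell by 11.1%. This call was the least secure of the 3. Without C57BL/6 replicate 2 the adjusted p was 0.0735, and without DBA/2 replicate 2 it was 0.0582.

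The aldehyde dehydrogenases differed from one another. Aldh2 (chromosome 5, 121566027 to 121593824, minus strand), the mitochondrial enzyme with high affinity for acetaldehyde, was at 85.7, 80.9 and 77.1 CPM in C57BL/6 and 82.0, 76.4 and 75.6 CPM in DBA/2. A gene model on the other strand, Gm42879, overlaps Aldh2 and had 2 to 6 counts per library. The strains overlapped, with a log2 fold change of -0.06 and a 95% interval of -0.18 to 0.06 (edgeR adjusted p = 0.5474). Aldh1b1 (chromosome 4, 45799022 to 45804604, plus strand), a mitochondrial relative of Aldh2 that also oxidizes acetaldehyde, was lower in abundance. It was at 8.97, 7.87 and 7.18 CPM in C57BL/6 and at 10.0, 8.07 and 8.21 CPM in DBA/2, and its log2 fold change was 0.14 (95% interval -0.14 to 0.42, edgeR adjusted p = 0.5317). Neither mitochondrial enzyme was called.

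Aldh1a1, the cytosolic dehydrogenase that makes retinoic acid from retinaldehyde and also oxidizes acetaldehyde and lipid aldehydes, showed the greatest difference of the 6 tested enzymes. Its libraries were at 60.6, 51.5 and 48.3 CPM in C57BL/6 and at 32.1, 26.9 and 30.3 CPM in DBA/2. The 2 groups were well apart, with no DBA/2 library near the lowest of C57BL/6. The means were 53.4 ± 6.35 and 29.8 ± 2.64 CPM, a log2 fold change of -0.84 (SE 0.086, 95% interval -1.02 to -0.66, edgeR adjusted p = 4.53e-07), so that the level fell by 44.3%. The call held in each fit without 1 library, with log2 fold changes from -0.91 to -0.74. With the counts of Aldh1a7 added to those of Aldh1a1 the log2 fold change was again -0.84. Aldh1a7 itself gave 4, 4 and 3 counts in the C57BL/6 libraries and 1, 3 and 4 in those of DBA/2, for a ratio of 0.765 (counting interval 0.267 to 2.09), and was not called without the filter (edgeR adjusted p = 0.828).

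The order of the genes is given per length, in FPKM, which the authors computed from the count and the exonic length. In C57BL/6 the means were 79.5 ± 2.30 for Akr1a1, 25.8 ± 2.99 for Aldh1a1, 19.3 ± 1.68 for Cat, 15.7 ± 0.782 for Aldh2, 7.65 ± 0.337 for Adh5 and 3.45 ± 0.378 for Aldh1b1. Each neighbouring pair in that order was separated in every library. In DBA/2, Aldh1a1 at 14.6 ± 1.27 FPKM, Cat at 14.4 ± 0.994 and Aldh2 at 15.3 ± 0.695 overlapped in their ranges over libraries. Within each DBA/2 library Aldh2 was above both others, as the ratios in the next paragraph show, and the order of Aldh1a1 and Cat differed between libraries. There Akr1a1 (71.9 ± 3.15), Adh5 (7.36 ± 0.280) and Aldh1b1 (3.84 ± 0.482) kept separate places. Adh1, Aldh1a7 and Cyp2e1 lay far lower, at mean FPKM of 0.193, 0.11 and 0.0567 in C57BL/6 and 0.127, 0.0867 and 0.103 in DBA/2. Between the paralogs with the similar upstream sequence, Aldh1a1 was 234 times Aldh1a7 per length in C57BL/6 and 168 times in DBA/2, on counts of Aldh1a7 of at most 4 per library. Among tested genes, the FPKM of Akr1a1 stood at the 97.5th percentile, Aldh1a1 at 85.5, Cat at 82.0 and Aldh2 at 80.3.

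**Figure D2:**
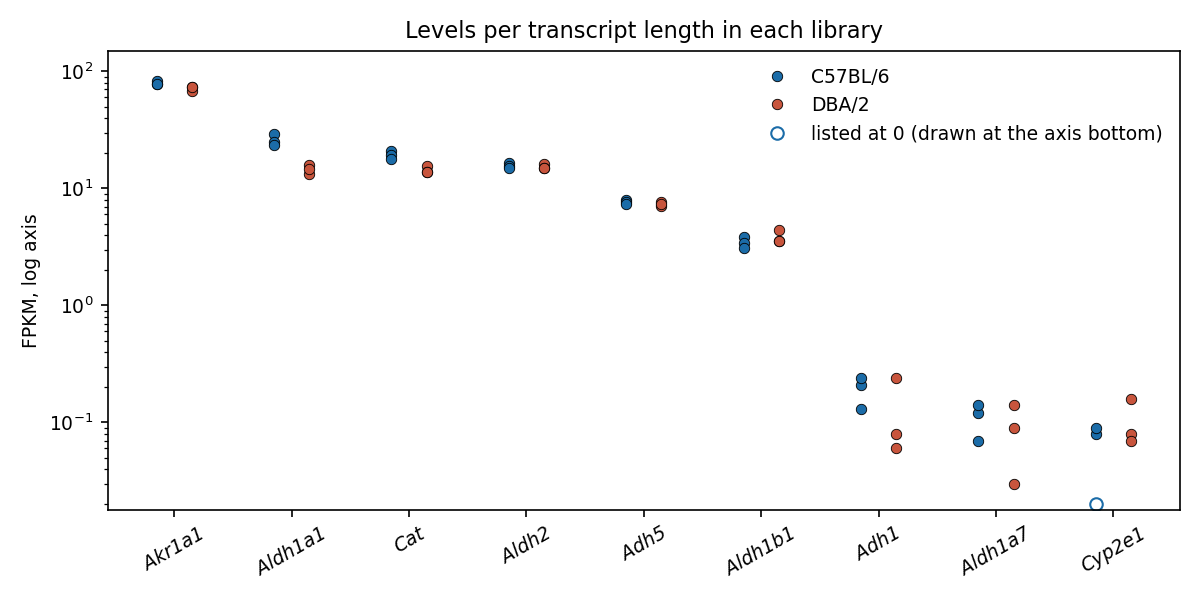
FPKM of the 9 enzymes in each library (y axis, log scale); each point is 1 library, and the open circle at the axis bottom is the C57BL/6 library in which Cyp2e1 is listed at 0. The highest library of the 3 low genes is at 0.24 FPKM, far under the 6 tested enzymes, and the strains are apart for Aldh1a1 and Cat.

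The balance within a library was also read per length, as ratios between enzymes, which were chosen after the values were seen. The C57BL/6 libraries had 1.77, 1.59 and 1.57 for Aldh1a1 per Aldh2, and those of DBA/2 had 0.978, 0.880 and 0.999. Cat per Aldh2 was 1.275, 1.23 and 1.184 against 0.962, 0.912 and 0.934. Aldh1a1 per Cat was 1.384, 1.291 and 1.322 against 1.016, 0.965 and 1.069. These 3 ratios were higher in every C57BL/6 library, whereas Adh5 per Aldh2 was 0.488 ± 0.00279 and 0.480 ± 0.018, with overlap. Akr1a1 per Aldh2 also overlapped, at 5.08 ± 0.275 in C57BL/6 and 4.70 ± 0.276 in DBA/2. With 3 libraries against 3, an exact two-sided permutation test cannot go below p = 0.1.

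In the list of other alcohol dehydrogenases 3 of 7 genes were tested, and 2 were called (66.7%, against 22.8% of all tested genes), both lower in DBA/2. The third, Iah1, is an esterase by its name and was misplaced in the list; it was at 9.41 ± 0.136 and 11.6 ± 1.06 CPM and was not called (0.29, edgeR adjusted p = 0.07373). Sord, which converts sorbitol to fructose, fell from 15.5 ± 1.18 to 10.9 ± 0.956 CPM (log2 fold change -0.49, edgeR adjusted p = 0.00163). A processed pseudogene, Gm6652, is 99.3% identical to Sord over 1070 bases and had 3 to 11 counts per library. A sum of the 2 was not tested. Adhfe1, a mitochondrial transhydrogenase of hydroxyacids, fell from 21.2 ± 1.23 to 17.1 ± 0.917 CPM (-0.31, edgeR adjusted p = 0.0123), a call lost without C57BL/6 replicate 2 (adjusted p = 0.0675) or DBA/2 replicate 1. Neither enzyme is known for ethanol oxidation. Adh7, the class IV enzyme, gave 2, 4 and 3 counts in the C57BL/6 libraries and 0 in every DBA/2 library. With 3 counts over the DBA/2 group as the floor, the lower bound on the fall was 2.85-fold. That bound takes the 9 C57BL/6 counts as exact, so a smaller difference is possible. The fit without the filter called Adh7 (edgeR adjusted p = 0.0454).

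Among the other aldehyde dehydrogenases, 14 of 17 passed the filter, 3 fell and 2 rose, with a median log2 fold change of -0.11. The share called was 35.7%, against 22.8% of all tested genes. The falls with the greatest fold change were in Aldh4a1 and Aldh7a1. Aldh4a1, of proline breakdown, was at 19.0, 18.4 and 17.3 CPM in C57BL/6 and 6.81, 5.95 and 5.26 CPM in DBA/2 (log2 fold change -1.59, SE 0.119, edgeR adjusted p = 2.76e-10). An overlapping gene model, Gm21969, shares 1128 identical bases with Aldh4a1 and had 0 to 7 counts per library. Aldh7a1, of lysine breakdown, went from 84.2 ± 3.48 to 33.1 ± 0.156 CPM (-1.34, SE 0.060, edgeR adjusted p = 2.62e-14). Aldh9a1, which acts in carnitine and GABA synthesis, fell from 35.7 ± 0.308 to 21.7 ± 2.43 CPM (-0.72, edgeR adjusted p = 3.43e-07). In Aldh4a1, Aldh7a1 and Aldh9a1 every DBA/2 library was below every C57BL/6 library, and each call held without any 1 library. The rises were in genes of low level, Aldh16a1 from 4.75 ± 0.445 to 6.71 ± 0.270 CPM (0.51, adjusted p = 0.0169) and Aldh3a1 from 0.627 ± 0.162 to 1.33 ± 0.409 CPM (1.12, adjusted p = 0.0263). Aldh16a1 lost its call without C57BL/6 replicate 3 or DBA/2 replicate 2, and Aldh3a1 without any of 4 of the 6 libraries; the Wald test of DESeq2 called neither. Aldh6a1, of valine breakdown, had a log2 fold change of 0.01 (95% interval -0.10 to 0.12, edgeR adjusted p = 0.9195) and was not called. Aldh5a1, which clears succinic semialdehyde in GABA breakdown, was at 121.9 ± 1.99 and 127.1 ± 2.33 CPM and was not called. Aldh1a3, another maker of retinoic acid, was under the filter at 8, 10 and 25 counts in the C57BL/6 libraries and 0, 4 and 4 in those of DBA/2, for a ratio of 0.196 (counting interval 0.0795 to 0.421), and the fit without the filter called it lower (-2.27, edgeR adjusted p = 0.000838).

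**Figure D3:**
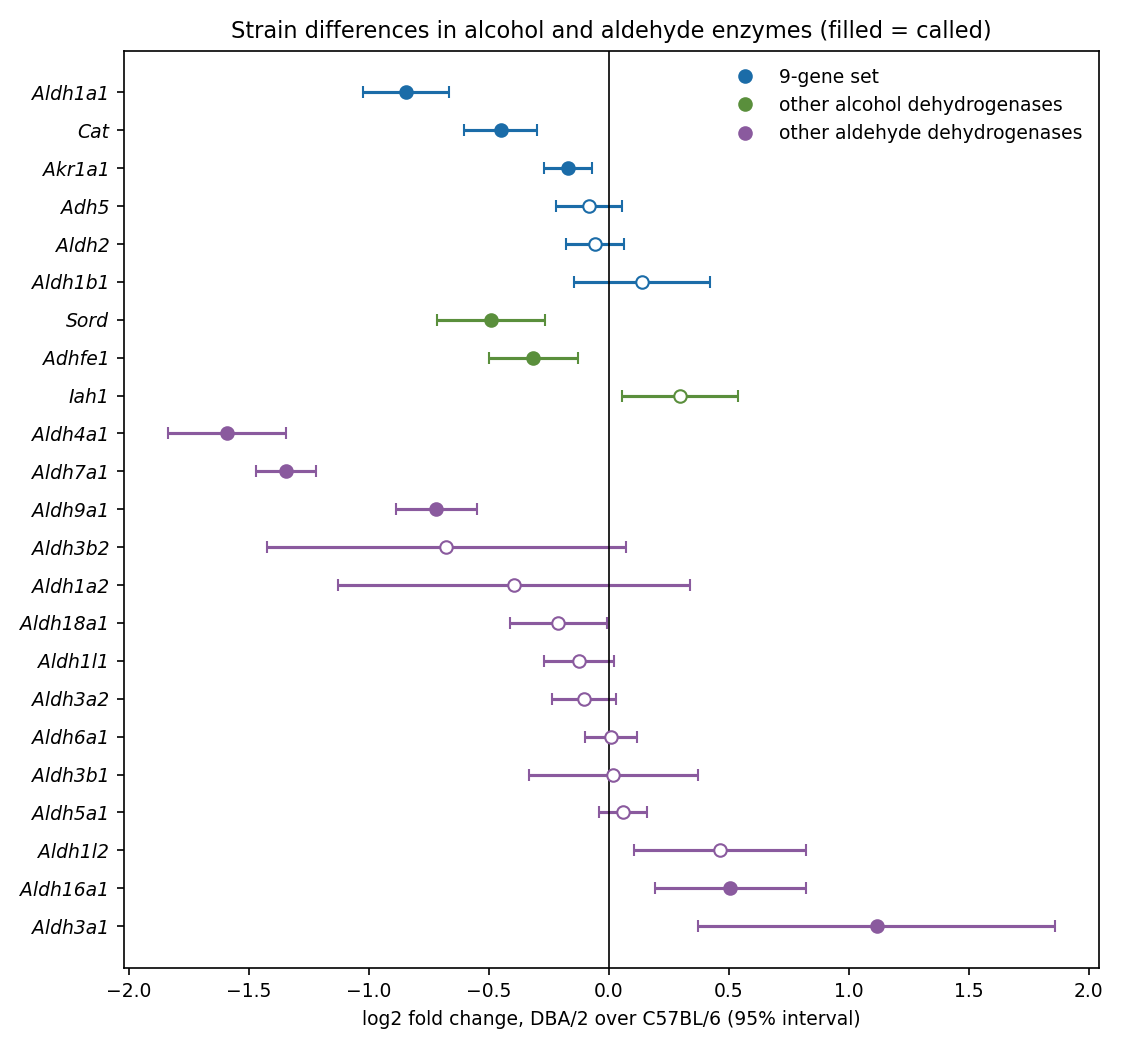
Log2 fold change, DBA/2 over C57BL/6, of each tested enzyme of the set and of the other alcohol and aldehyde dehydrogenases (x axis), with 95% intervals; filled points are called genes. Aldh1a1, Cat and Akr1a1 lie left of 0, and Aldh4a1 and Aldh7a1 lie farthest left.

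The 15 genes of the peroxisome and of hydrogen peroxide handling, the substrate of catalase, were all tested; 7 were called, all lower, against 13.7% of all tested genes, with a median of -0.16. The count of 7 dropped to 2 without C57BL/6 replicate 1 or without DBA/2 replicate 2, and to 3 without C57BL/6 replicate 2 or in the Wald test of DESeq2. Gpx4, a peroxidase of lipid hydroperoxides, fell from 106.6 ± 10.7 to 87.95 ± 2.51 CPM (-0.27, edgeR adjusted p = 0.0025) and kept its call without any 1 library.

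Genes of retinoid synthesis, binding and breakdown had 15 of 19 members tested, 3 higher and 1 lower, with a median of 0.02. The share called, 26.7%, was near the 22.8% of all tested genes. Rdh13, a mitochondrial retinol dehydrogenase, rose from 22.7 ± 0.907 to 46.9 ± 2.17 CPM (1.05, SE 0.071, edgeR adjusted p = 5.15e-11). Cyp26b1, which breaks down retinoic acid, rose from 13.1 ± 0.810 to 19.0 ± 2.75 CPM (0.55, edgeR adjusted p = 0.0005). Both were higher in all DBA/2 libraries than in any C57BL/6 library. Rdh14 fell from 26.6 ± 2.199 to 20.6 ± 3.12 CPM (-0.37, adjusted p = 0.00969), a call lost without C57BL/6 replicate 1 or DBA/2 replicate 2.

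The 5 remaining lists had 0.0% to 42.9% of tested genes called, against 22.8% of all tested genes. Of 7 tested genes of microsomal oxidation, 1 was higher and 2 lower; Cyb5r3, a reductase that supplies electrons to cytochrome b5, fell from 50.5 ± 2.51 to 35.02 ± 0.633 CPM (-0.53, edgeR adjusted p = 1.03e-06). Monoamine oxidation and related aldehyde sources had 1 higher and 2 lower of 8, with Maob, which turns monoamines into aldehydes, falling from 30.7 ± 0.207 to 23.9 ± 1.99 CPM (-0.36, adjusted p = 0.00121). Formaldehyde handling had 1 lower of 7, Esd, the hydrolase after Adh5 in formaldehyde oxidation, from 29.9 ± 1.12 to 20.6 ± 1.04 CPM (-0.54, adjusted p = 1.15e-05). The other aldo-keto and carbonyl reductases had 1 higher, Cbr3 (log2 fold change 0.41), and 1 lower, Cbr1 (-0.18), of 12. Cbr1 lost its call without any of 5 of the 6 libraries and Cbr3 without any of 3, and the Wald test of DESeq2 called neither. Genes that use acetate and acetyl-CoA, the next step after the aldehyde dehydrogenases, had 0 of 7 called in edgeR, with 2 at an unadjusted p under 0.05, and 0 in DESeq2 or limma-voom; the most abundant, Cs, was at 265.0 ± 2.18 and 274.5 ± 6.98 CPM.

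**Figure D4:**
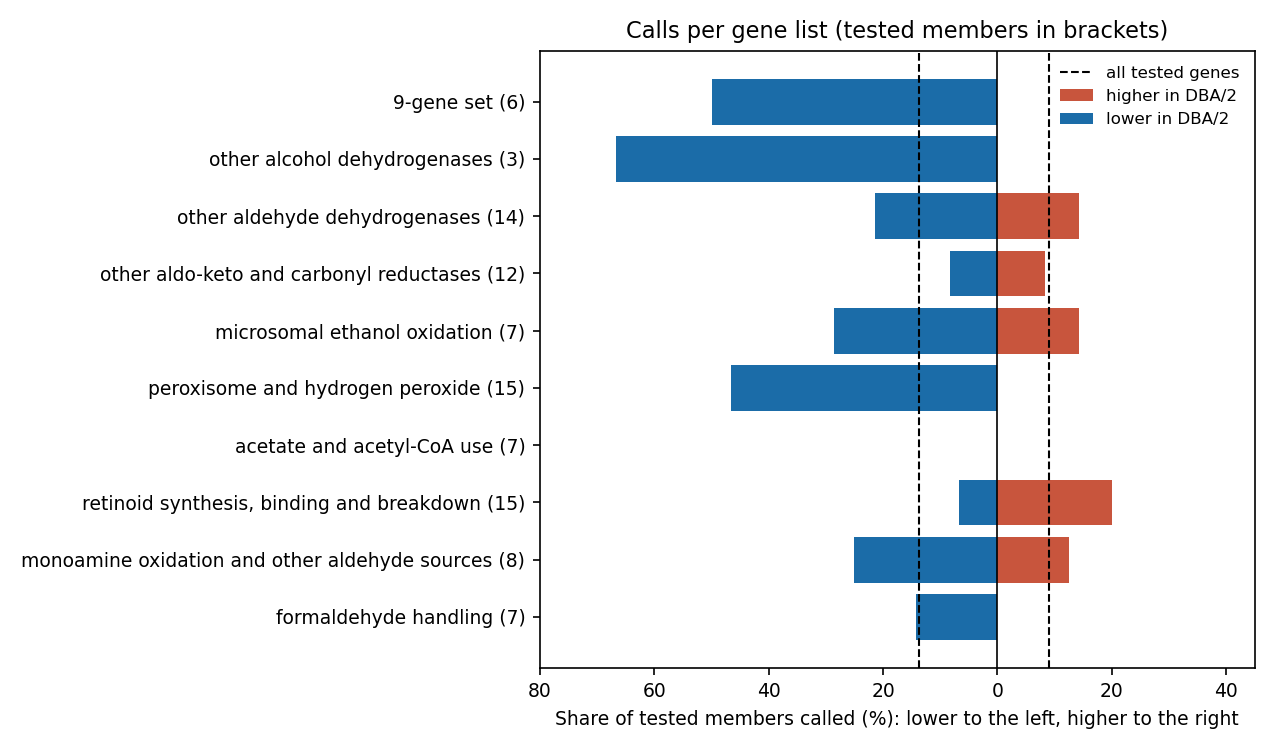
Share of tested genes of each list called lower (left) or higher (right) in DBA/2, in percent, with dashed lines at the shares for all tested genes, 13.7% and 9.09%. The set of 9 genes had calls on the lower side only.

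Bulk tissue cannot tell fewer cells of a type from less RNA per cell. Some markers of several cell types were called between the strains beside these enzymes. Their counts stand against 22.8% of all tested genes called, 9.09% higher and 13.7% lower in DBA/2. Counts of 2 or 3 called in 10 are near that share. Of 10 astrocyte markers, 6 were lower and 1 higher, while their summed level was 4460 to 4699 CPM in C57BL/6 and 4668 to 5278 CPM in DBA/2. Slc1a2, the gene called higher, carried that sum, and the other 9 together were at 1808 to 1972 and 1554 to 1642 CPM. Of 8 microglial markers, 5 were lower, with sums of 345.2 to 377.3 and 279.8 to 305.8 CPM. Of 10 thalamus and habenula markers, 6 were lower (10 in DESeq2), at 479.5 to 684.7 and 254.2 to 335.5 CPM. The 8 oligodendrocyte markers had 1 call, lower, against 6 lower in DESeq2 and 8 in limma-voom, with sums of 6849 to 8556 and 4585 to 6193 CPM. Dopamine neurons, a known site of Aldh1a1, had 1 of 3 tested markers lower, with all 5 together at 20.1 to 22.7 and 12.7 to 18.6 CPM. Choroid plexus and ependyma markers, at 696 to 1532 and 1247 to 2731 CPM, had 2 of 10 lower, Ccdc153 and Tmem212. The median log2 fold change of that list was 0.28. Ttr, Folr1, Kl, Clic6, Aqp1 and Kcnj13 were at log2 fold changes of 0.20 to 0.96, and Foxj1 and Otx2 at -0.45 and -0.11. None of these was called. Ttr, which was not called, carried the sum, at 582 to 1368 CPM in C57BL/6 and 1144 to 2543 CPM in DBA/2. Meningeal markers had 0 of 10 called in edgeR (4 at an unadjusted p under 0.05), 1 in DESeq2 and 2 in limma-voom, with sums of 406.5 to 584.3 and 264.6 to 407.7 CPM; without Ptgds, which carried the sum, the other 9 were at 126.4 to 176.7 and 165.5 to 209.1 CPM. Endothelial and mural markers were at 188.1 to 262.4 and 245.1 to 289.5 CPM. Of 10, 1 was higher (Cldn5, 0.45, edgeR adjusted p = 0.03903) and 1 lower (Vwf, -0.74, edgeR adjusted p = 8.93e-05). No marker of this list was called higher without C57BL/6 replicate 2 or without DBA/2 replicate 1, 2 or 3. Without C57BL/6 replicate 1 there were 2 called higher, and without C57BL/6 replicate 3 there were 5. Red blood cell markers varied between libraries, from 90.3 to 311 CPM in C57BL/6 and 84.4 to 177.9 CPM in DBA/2, with 0 of 5 called in edgeR (0 at an unadjusted p under 0.05) and 1 lower in DESeq2 and in limma-voom. Hippocampal neuron markers, which check the tissue, were at 6031 to 6538 and 6319 to 6833 CPM, with 2 of 10 higher and 1 lower. The part of these marker levels in the enzyme differences was not tested.

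The C57BL/6 libraries differed in Xist, an RNA made from the inactive X chromosome of females, with 3214, 1 and 6995 counts, and the DBA/2 libraries had 12, 10 and 2. Without the 2 C57BL/6 libraries with Xist counts, a test with 1 library left in that strain, chosen after seeing the data, 2012 genes were called. The lone library is assumed there to vary as the DBA/2 libraries do. Aldh1a1 (-0.79, edgeR adjusted p = 9.01e-07) and Cat (-0.44, adjusted p = 0.00327) were still called, and Akr1a1 was not (-0.21, adjusted p = 0.0825). In that test fewer genes were called over all tested genes than with all 6 libraries. Fewer calls there in the peroxisome and hydrogen peroxide, retinoid, astrocyte and microglial lists thus cannot be read as particular to those lists. More genes were called lower among the other aldehyde dehydrogenases and red blood cell markers, and more higher among endothelial and mural markers. The filter passed more genes in that test, so counts of some lists, such as the other aldehyde dehydrogenases, are not over the same genes. Maob (adjusted p = 0.0576) and Cyp26b1 (adjusted p = 0.0724) lost their calls.

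Genes near the called enzymes, within 500 kb, did not all move with them; 25.0% of those tested near Cat and 7.69% near Akr1a1 were called, against 22.8% of all tested genes. Near Cat, 8 genes were tested and 1 was higher, Lmo2, and 1 lower, Apip; the nearest tested on either side, Elf5 at 73.5 kb and Abtb2 at 81.2 kb between gene starts, were not called. Near Akr1a1, 26 genes were tested, with 1 lower, the peroxiredoxin Prdx1 at 33.9 kb (-0.18, edgeR adjusted p = 0.0256), and 1 higher, C530005A16Rik. Lmo2 lost its call without any of 5 of the 6 libraries, Apip and Prdx1 without any of 4, and C530005A16Rik without 1. Near Aldh1a1 only Anxa1 (-0.69, SE 0.311, adjusted p = 0.124) and 1500015L24Rik were tested, and neither was called.

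**Figure D5:**
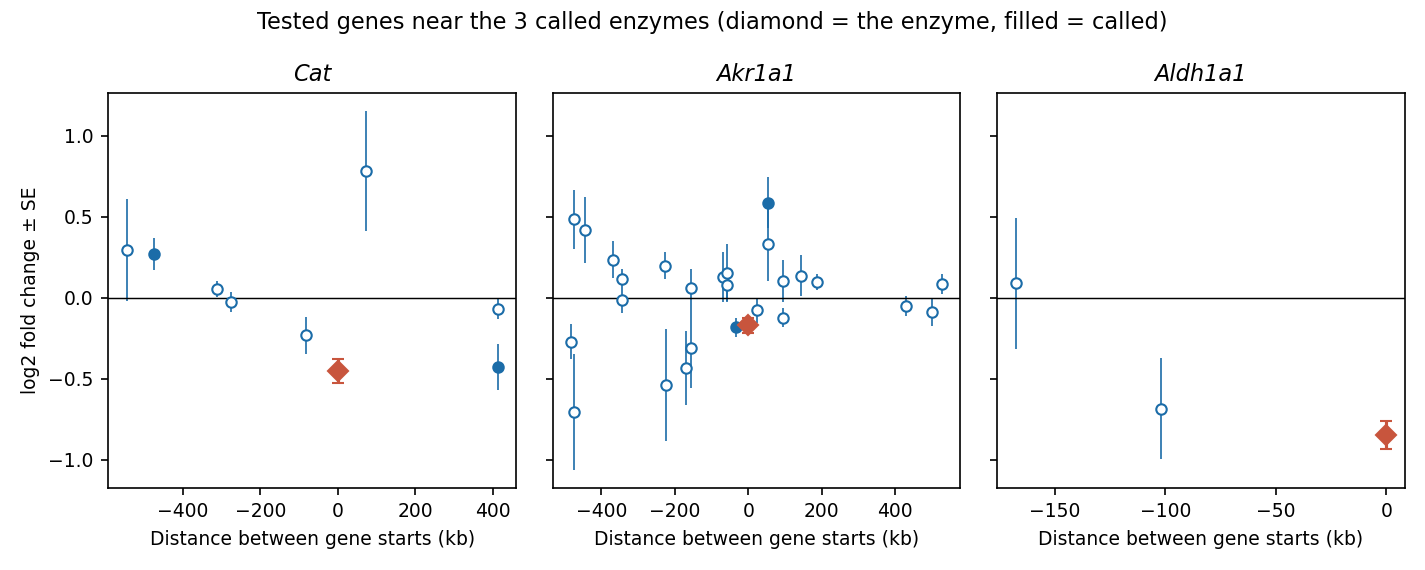
Log2 fold change with SE of tested genes near Cat, Akr1a1 and Aldh1a1 (y axis), by distance between gene starts in kb (x axis); diamonds are the enzymes and filled points are called genes. Called were 2 of 8 neighbours of Cat and 2 of 26 of Akr1a1, and neither tested neighbour of Aldh1a1 was.

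The genes whose log2 CPM followed each called enzyme most closely over the 6 libraries, out of 16049, were Chmp4b (Pearson r 0.9997), Tuba1a and Med31 for Aldh1a1, Ccnyl1 (0.9985), Pccb and Gm45396 for Cat, and Fbxw5 (0.9965), Fbxo25 and Pdcd2l for Akr1a1. All 6 points are shared libraries in 2 strains, so a gene that differs between strains can rank high for that reason alone.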

How the data were processed

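Total RNA from frozen hippocampus was made into NEBNext Ultra libraries and sequenced on an Illumina HiSeq, per the labels' protocols. Trimmomatic 0.30, HISAT2 2.0.1 and Cufflinks 2.2.1 and build GRCm38 are named in the submitters' processing notes; for the counting program, annotation and strand setting, the answer is not given in the sources used here. Raw counts of each gene were deposited by the authors, along with FPKM, which equalled the count per kilobase scaled to the library total within 0.005. The table's 12 columns that match no labelled sample were not used. Total counts were 16826010, 13867280 and 20185683 in C57BL/6 and 16912153, 16807559 and 13839366 in DBA/2. Of the gene IDs, 99.5% were in GENCODE M21.

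Counts were tested with edgeR 4.0.16 (quasi-likelihood F test, robust, TMM, filterByExpr) in R 4.3.3, with Benjamini-Hochberg adjustment over 17517 genes and calls at adjusted p under 0.05. The standard error is the log2 fold change divided by the square root of F. On simulated counts modelled on this comparison, with 17259 genes tested, 100 genes were changed 1.5-fold and 100 were changed 2-fold. Of these, 68% and 83% were recovered, and 6.79% of 162 calls were false. That is a far smaller share of genes than the 22.8% called in the data, so these rates may not hold here. Alternatives used DESeq2 1.42.0 and limma 3.58.1. Upstream windows are from RefSeq (GRCm38.p6), matched for 8 of the 9 enzymes (Aldh2 was not analysed here); similar transcripts were sought with BLAST 2.17.0 and aligned with MAFFT 7.526.

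The enzymes and lists were chosen with earlier results of these data known, so counts per list are descriptions. Named genes were drawn from the 9 enzymes, the 3 genes most alike to each called enzyme, and the nearest tested neighbours of called enzymes. All called alcohol and aldehyde dehydrogenases were included, with the largest called change in each direction (or most abundant gene) of each other list. Not every gene that this rule takes is named. Cyp26b1, Gpx4, Prdx1, Lmo2, Apip, C530005A16Rik, Adh7, Aldh1a3, Aldh5a1, Aldh6a1, Iah1 and the marker genes were added after their values were seen. Gene models that overlap or resemble a named gene are also given. A gene that the rule takes is not reported here.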

Additional observations from a re-analysis of the deposited data

How the results depend on the processing

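Aldh1a1 and Cat kept their direction and call under all 17 alternatives run (1 of which leaves a single C57BL/6 library, so that the spread comes from DBA/2 alone), with log2 fold changes of -0.91 to -0.74 and -0.51 to -0.38. Aldh2, Adh5 and Aldh1b1 were called in none of their 17, at -0.09 to -0.01, -0.11 to -0.04 and 0.03 to 0.23. Akr1a1 kept its direction in all and its call in 12; it was not called by limma on log2(FPKM + 1) (-0.14, adjusted p = 0.0534) or log2(FPKM + 0.1) (-0.15, adjusted p = 0.0551), nor without the C57BL/6 libraries with Xist counts (-0.21, adjusted p = 0.0825), and leaving out 1 library gave -0.19 to -0.13 (adjusted p 0.0123 to 0.0735). Why these fits differ was not tested. The cause was not tested for the count of called genes either, which was 3131 to 3717 on leaving out 1 library (1151 to 1483 higher, 1980 to 2252 lower) and 2012 without the libraries with Xist counts (691 higher, 1321 lower), of which 1876 were among the 4000 of the comparison. The 27 called genes of the 9 other enzyme and pathway lists kept their direction in all 458 refits and lost the call in 121.

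Over all tested genes, deviations of same-numbered libraries correlated at 0.132, -0.079 and 0.003, so not every library correlated best with its own number. A correlation over all genes cannot exclude a pairing that touches some genes only. Choroid plexus and ependyma markers, by replicate number, summed to 1532, 993.4 and 696 CPM in C57BL/6 and 2731, 1963 and 1247 CPM in DBA/2. With a replicate block 3 of these markers were called higher and 3 lower. With a replicate block 3827 genes were called, and the 3 enzymes kept their calls (Akr1a1 -0.17, adjusted p = 0.0277). No near-identical copy of any of the 9 enzymes was found, so the alternative that sums a gene with such copies had nothing to sum; the sum of the less similar Aldh1a1 and Aldh1a7 was run and is among the 17. Depth limits Adh1, Aldh1a7 and Cyp2e1, at 11 counts or fewer per library.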
